A study of Homo sapiens with 70 samples.

Results

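The TGF-beta genes described here are 10 of the 44503 gene identifiers in each count table: the ligands TGFB1, TGFB2 and TGFB3, the receptors TGFBR1, TGFBR2 and TGFBR3, the transcription factor SMAD3, the inhibitor SMAD7, and the target genes CTGF and TGFBI. They were chosen by name and role. Each symbol matched 1 identifier, with CTGF listed under its current symbol CCN2. Expression was measured by poly(A) RNA-seq in 3 experiments on established human cell lines. In the first, IMR90 lung fibroblasts that carry the pLNCX2 vector for ER:HRAS G12V, an oncogenic HRAS switched on by 4-hydroxytamoxifen (4OHT), received pMSCV miR v (the empty shRNA vector) or pMSCV miR shHMGA1. Grow and Grow-shA1 cells were taken without 4OHT, and OIS (oncogene-induced senescence, RIS in the labels) and OIS-shA1 cells after 6 days in 100 nM 4OHT, with 8 libraries per group. In the second, IMR90 cells with the same ER:HRAS G12V vector carried a pSuper and a pMSCV miR vector, both of them empty in Grow-v-v (no 4OHT) and OIS-v-v cells, with the CEBPB shRNA in OIS-shCEBPB, the p53 shRNA in OIS-shp53, and both in OIS-shCEBPB-shp53 cells. The OIS groups of this experiment also had 6 days in 100 nM 4OHT, and each group had 5 libraries. In the third, H1299 cells, a non-small cell lung carcinoma line, carried pMSCV miR v (H1299, 7 libraries) or pMSCV miR shHMGA1 (H1299-shA1, 6 libraries) and received no 4OHT. The cells were retrovirally transduced pools under drug selection, so a group mixes cells with different insertion sites, and RNA was taken at 1 time point per state.

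TGF-beta ligands are secreted as latent dimers and, once released, bind the type II receptor TGFBR2, which phosphorylates the type I receptor TGFBR1. TGFBR1 then phosphorylates SMAD2 and SMAD3, which enter the nucleus with SMAD4 and switch target genes. TGFBR3 (betaglycan) is a co-receptor that presents ligand, TGFB2 above all. SMAD7 blocks TGFBR1 and is itself a target gene, so that it closes a negative feedback loop. CTGF encodes a matricellular growth factor that also responds to the YAP-TEAD pathway, and TGFBI encodes a secreted matrix protein. In fibroblasts the pathway drives matrix production, and in senescent cells secreted TGF-beta is known as a signal that can pass growth arrest to neighbouring cells.

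Total counts ran from 1903607 to 22136571 per library in the first experiment, from 14544053 to 24890797 in the second and from 17747670 to 23649765 in the third. OIS replicate 4 was the library with 1903607 counts, and leaving it out changed no call on a member gene. HMGA1 and CEBPB were lower in every library with their shRNA than in every control, by log2 fold changes of -3.62 (OIS), -3.79 (Grow) and -2.31 (H1299) for HMGA1, and -3.06 and -3.19 for CEBPB (alone and with shp53). All 10 fibroblast markers reached 1 CPM in each IMR90 group, whereas in H1299 libraries 2 of 10 did. Of the 6 epithelial markers, 3 (KRT8, KRT18 and CLDN4) reached a mean of 1 CPM in H1299 libraries. EPCAM, CDH1 and KRT19 stayed below 1 CPM, so these last epithelial markers were at or near 0 in a carcinoma line. In the second experiment, replicates 4 and 5 stood apart from replicates 1 to 3 in all 5 groups: the first principal component of the deviations from the group means took 47.1% of their variance, with scores from -0.215 to -0.0987 in replicates 1 to 3 and from 0.179 to 0.321 in replicates 4 and 5. The labels do not say what the numbers mark, so results of that experiment are given with the replicate number as a block and within each set of replicates where these change a call. Levels are in CPM, the count of a gene in a library scaled to 1000000 counts after TMM correction. The error after ± is the SD over libraries for a level and the SE for a log2 fold change. Overlap of libraries between groups is given per gene as a description, and its share over all genes was not counted.

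On hg19, the ligand genes lie at chr19:41807492-41859816 (TGFB1, ENSG00000105329, minus strand), chr1:218519577-218617961 (TGFB2, ENSG00000092969, plus strand) and chr14:76424442-76449334 (TGFB3, ENSG00000119699, minus strand). The receptor genes lie at chr9:101866320-101916474 (TGFBR1, ENSG00000106799, plus strand), chr3:30647994-30735634 (TGFBR2, ENSG00000163513, plus strand) and chr1:92145902-92371892 (TGFBR3, ENSG00000069702, minus strand). SMAD3 (ENSG00000166949, chr15:67356101-67485518, plus strand), SMAD7 (ENSG00000101665, chr18:46446223-46477081, minus strand), CTGF (ENSG00000118523, chr6:132269316-132272513, minus strand) and TGFBI (ENSG00000120708, chr5:135364584-135399507, plus strand) complete the set. Strand was not used in counting, and exons of other genes overlap those of TGFB1 over 215 bases (HNRNPUL1), of TGFB3 over 163 (TGFB3-AS1) and of CTGF over 195 (ENSG00000227220), so fragments lying there could not be assigned.

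The promoters of CTGF and TGFB2, which fell most in OIS, and of SMAD7, which rose, are shown because they hold the short letters that SMAD and TEAD factors recognise. The sequences are RefSeq's (GRCh38.p14 entries), were matched without a mismatch to 1 place on hg19 each, and run 5′ to 3′ up to the RefSeq start nearest to the gene's 5′ end. Capitals mark CAGAC or its reverse complement GTCTG (the core SMAD-binding letters) and GGAATG or its reverse complement CATTCC (the TEAD-binding letters), and no marked letters overlap.
CTGF, chr6:132272514-132272762, minus strand: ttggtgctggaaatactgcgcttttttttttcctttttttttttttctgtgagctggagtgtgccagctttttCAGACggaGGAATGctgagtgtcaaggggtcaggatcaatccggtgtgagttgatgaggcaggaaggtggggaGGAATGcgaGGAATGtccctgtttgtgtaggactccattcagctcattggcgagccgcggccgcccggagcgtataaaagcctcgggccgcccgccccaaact
TGFB2, chr1:218518428-218518677, plus strand: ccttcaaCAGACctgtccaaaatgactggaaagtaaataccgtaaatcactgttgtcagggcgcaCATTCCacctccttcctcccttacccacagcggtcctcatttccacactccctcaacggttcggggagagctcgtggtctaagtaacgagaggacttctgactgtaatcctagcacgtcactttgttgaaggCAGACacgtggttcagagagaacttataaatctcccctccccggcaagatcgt
SMAD7, chr18:46477336-46477585, minus strand: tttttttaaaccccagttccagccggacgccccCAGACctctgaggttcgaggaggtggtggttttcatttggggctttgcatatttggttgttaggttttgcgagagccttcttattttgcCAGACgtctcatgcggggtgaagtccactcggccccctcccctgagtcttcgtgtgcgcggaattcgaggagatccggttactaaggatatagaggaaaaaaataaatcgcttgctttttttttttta

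The CTGF promoter, which abuts the annotated gene, held CAGAC once, 177 bases before the start, and GGAATG at 169, 104 and 95 bases before it. The TGFB2 window ended 899 bases before the gene's annotated 5′ end and held CAGAC at 243 and 53 bases and GGAATG at 185 bases before its start. The SMAD7 window ended 254 bases before the annotated 5′ end and held CAGAC at 217 and 128 bases. Over the chosen promoter of each of the 10 members, 5 held CAGAC (TGFB2, TGFB3, TGFBR1, SMAD7 and CTGF) and 2 held GGAATG (CTGF and TGFB2), and that of TGFBI held neither. Not all of these windows end at the annotated 5′ end. The RefSeq start lay 20184 (TGFBR3), 1839 (SMAD3), 99 (TGFBR2), 93 (TGFBI) and 14 bases (TGFBR1) inside the annotated gene. The TGFBR3 and SMAD3 windows lay wholly inside it. Of all 35116 RefSeq promoters of 250 bases, 38% held CAGAC and 11.9% held GGAATG on either strand. The SMAD palindrome GTCTAGAC and the AP-1 letters TGANTCA, which 0.182% and 6.57% of all promoters held, were in none of the 10 windows of 250 bases. Sequence outside these windows was not searched. These matches describe the letters only.

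To compare levels between genes, CPM were divided by the exonic length in kilobases (CPM per kb). In Grow libraries the target genes stood highest, TGFBI at 1188 ± 31.6 CPM per kb (SD, n = 8) and CTGF at 514 ± 44.2 CPM per kb, followed by TGFBR2 at 77.1, TGFB1 at 59.4 and TGFB2 at 30.05 CPM per kb. SMAD3 (24.7), TGFBR1 (17.7) and SMAD7 (14.6 CPM per kb) came next, and TGFBR3 (1.13) and TGFB3 (0.301 CPM per kb) were lowest. Libraries of TGFB2 overlapped those of SMAD3, and libraries of TGFBR1 those of SMAD7, and the other neighbours in this order did not overlap. In OIS libraries TGFBI stayed first at 708 CPM per kb, while CTGF (89.9) overlapped TGFBR2 (84.1 CPM per kb) and SMAD7 (22.2) stood above SMAD3 (14.9 CPM per kb) without overlap. H1299 libraries had another order: TGFB1 (53.4), CTGF (38.6), SMAD3 (20.2), TGFBR3 (16.2), TGFBR2 (13.7), TGFBR1 (8.36), TGFBI (4.12), TGFB2 (4.10), TGFB3 (2.51) and SMAD7 (1.02 CPM per kb), with TGFBI and TGFB2 the overlapping neighbours. The tables were normalised separately, and no test was made between lines.

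TGFB1 made up most of the ligand mRNA in every group. Its share of the summed CPM per kb of the 3 ligands was 66.2 ± 3.30% (SD, n = 8) in Grow and 83.8 ± 2.99% in OIS libraries, and that of TGFB2 33.4 ± 3.41% and 15.8 ± 3.11%. With shA1 the TGFB2 share was 44.7 ± 7.14% in Grow-shA1 and 12.6 ± 1.36% in OIS-shA1 libraries, so shA1 libraries held the highest and the lowest TGFB2 share of this experiment. In the second experiment TGFB1 took from 89.05 ± 2.87% (Grow-v-v) to 96.7 ± 1.27% (OIS-shCEBPB-shp53, SD, n = 5). TGFB3 stayed below 1% in IMR90 libraries and made up 4.20 ± 0.443% in H1299 libraries (SD, n = 7). Among receptors, TGFBR2 took 80.2 ± 3.61% in Grow and 88.5 ± 0.793% in OIS libraries, whereas in H1299 libraries the co-receptor TGFBR3 took 42.4 ± 0.992%, TGFBR2 35.8 ± 1.27% and TGFBR1 21.8 ± 0.763%.

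**Figure D1:**
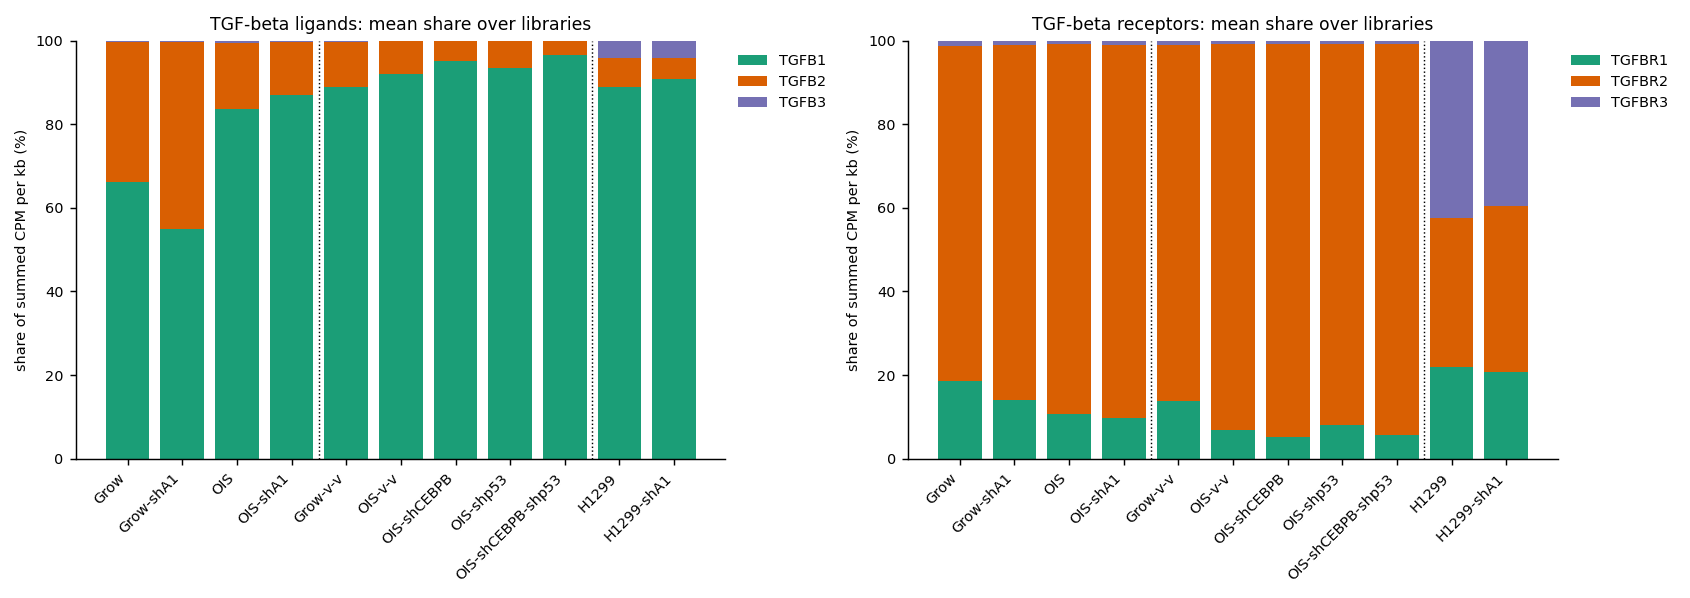
Stacked bars show the mean share (percent) of each ligand in the summed CPM per kb of TGFB1, TGFB2 and TGFB3, and of each receptor in that of TGFBR1, TGFBR2 and TGFBR3, for the 11 groups. TGFB1 is the main ligand throughout, TGFB2 takes 44.7% in Grow-shA1, and TGFBR3 takes 42.4% of the receptors in H1299 cells.

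The first comparison asked how the pathway genes differ between senescent and proliferating fibroblasts. CTGF and TGFB2 fell most from Grow to OIS, TGFB1, TGFBR1, TGFBR3, SMAD3 and TGFBI fell by smaller amounts, SMAD7 and TGFBR2 rose, and TGFB3 did not pass the test. In all, 9 of the 10 members passed, 2 higher and 7 lower, against 74.8% of the 13304 genes tested, so most genes changed between these states. Across the 10 members the median log2 fold change was -0.69 against 0.027 for all genes tested, and its median size, sign left aside, 0.69 against 0.41. In bulk libraries, fewer cells that express a gene and less RNA of it per cell cannot be told apart.

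CTGF ranged from 1043 to 1320 CPM (median 1204) in Grow and from 167 to 254 CPM (median 214) in OIS libraries. TGFB2 ranged from 119 to 177 CPM (median 160.1) in Grow and from 29.2 to 47.7 CPM (median 35.7) in OIS libraries. Every OIS library lay below every Grow library for both genes, and the highest OIS value of TGFB2 was that of the shallow replicate 4. The fall was 5.61-fold for CTGF (log2 fold change -2.49 ± 0.067, edgeR adjusted p = 4.57e-23) and 4.32-fold for TGFB2 (log2 fold change -2.11 ± 0.074, edgeR adjusted p = 2.04e-20), and without OIS replicate 4 the log2 fold change of TGFB2 was -2.14 (edgeR adjusted p = 2.96e-21). TGFB1 held 170.3 to 204 CPM (median 196) in Grow and 104 to 132 CPM (median 122) in OIS libraries, again without overlap (log2 fold change -0.62 ± 0.046, edgeR adjusted p = 6.91e-13). TGFB3, the rarest member, held 0.859 to 2.62 CPM (median 1.45) in Grow and 0 to 1.68 CPM (median 1.005) in OIS libraries (log2 fold change -0.44 ± 0.26, edgeR adjusted p = 0.128). Its 0 in OIS replicate 4 allows up to 3 counts, or 1.58 CPM at that depth for counting error only, and without that library the log2 fold change was -0.41 (edgeR adjusted p = 0.145).

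The receptors moved apart. TGFBR1, the signalling receptor that phosphorylates SMAD2 and SMAD3, held 89.8 to 155 CPM (median 119) in Grow and 61.7 to 82.5 CPM (median 70.03) in OIS libraries. All 8 OIS libraries lay below every Grow library (log2 fold change -0.75 ± 0.079, edgeR adjusted p = 1.24e-09). TGFBR2 held 321 to 408 CPM (median 364) in Grow and 368 to 425 CPM (median 391) in OIS libraries, with 3 of 8 OIS libraries above every Grow library, and its rise was small (log2 fold change 0.16 ± 0.051, edgeR adjusted p = 0.00479). The co-receptor TGFBR3 held 7.51 to 12.5 CPM (median 9.40) in Grow and 3.997 to 8.32 CPM (median 5.74) in OIS libraries, and 7 of 8 OIS libraries lay below every Grow library (log2 fold change -0.68 ± 0.13, edgeR adjusted p = 2.43e-05).

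The SMAD genes changed in opposite directions. SMAD3 held 153 to 179.5 CPM (median 164) in Grow and 80.4 to 123 CPM (median 95.8) in OIS libraries (log2 fold change -0.71 ± 0.058, edgeR adjusted p = 7.32e-12). SMAD7, the inhibitor, held 40.3 to 66.6 CPM (median 51.6) in Grow and 73.4 to 93.9 CPM (median 79.9) in OIS libraries (log2 fold change 0.65 ± 0.070, edgeR adjusted p = 2.26e-09). The groups did not overlap for either gene. TGFBI, the most abundant member, held 6015 to 6475 CPM (median 6278) in Grow and 3435 to 3996 CPM (median 3775) in OIS libraries, a 1.63-fold fall without overlap (log2 fold change -0.71 ± 0.042, edgeR adjusted p = 5.33e-15). The fibroblast markers fell, as SMAD3 and TGFBI did and SMAD7 did not. Their summed level ran from 37726 to 47082 CPM in Grow and from 5764 to 7090 CPM in OIS libraries. All 10 markers stayed above 1 CPM, and 0 of 10 were higher and 9 lower past the threshold. In Grow and OIS libraries, in that order, the endothelial markers summed to 138 to 158 CPM and 67.03 to 90.02 CPM (1 higher and 1 lower of 2 tested), the epithelial markers 73.2 to 96.9 CPM and 42.9 to 61.1 CPM (0 higher and 3 lower of 4 tested) and the leukocyte markers 16.2 to 22.7 CPM and 43.9 to 58.6 CPM (1 higher and 0 lower of 1 tested). Their part in the result was not tested.

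**Figure D2:**
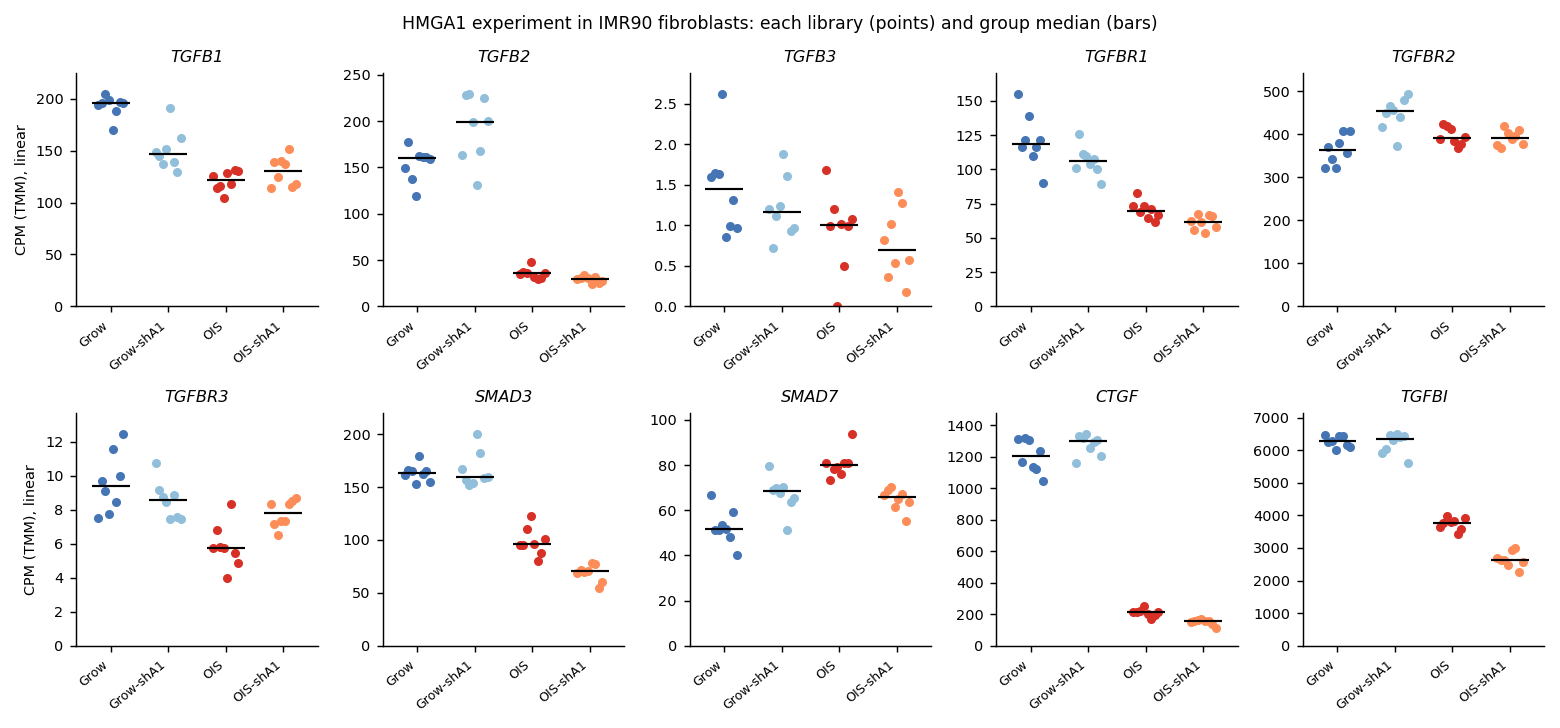
Each panel plots the CPM of a member gene (linear axis) in the 8 libraries of each group of the first experiment as points, with a bar at the group median. CTGF and TGFB2 are far lower in both OIS groups than in both Grow groups. SMAD7 has its highest median in OIS libraries, and SMAD3 and TGFBI step down again in OIS-shA1 libraries.

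The second experiment repeated the contrast with other vectors and its own control cells. CTGF, SMAD3, TGFBR1 and TGFB3 fell and TGFBR2 and SMAD7 rose from Grow-v-v to OIS-v-v, so 6 of 10 members passed, against 45.8% of the 13344 genes tested. By median, the log2 fold change was -0.47 for the members and 0.0069 for all genes, and its size alone 0.55 and 0.33. CTGF held 1127, 1025, 1097, 1149 and 1069 CPM in replicates 1 to 5 of Grow-v-v and 347, 331, 352, 327 and 298 CPM in those of OIS-v-v cells. SMAD3 held 153, 156, 142, 159 and 128 CPM in Grow-v-v and 85.3, 84.99, 81.4, 68.4 and 65.7 CPM in OIS-v-v libraries. SMAD7 held 32.1, 32.5, 34.9, 37.9 and 43.2 CPM in Grow-v-v and 48.8, 46.4, 52.9, 50.8 and 50.7 CPM in OIS-v-v libraries. For these 3 genes no library overlapped between the groups. The log2 fold changes were -1.71 ± 0.079 (edgeR adjusted p = 1.45e-08) for CTGF, -0.92 ± 0.097 (edgeR adjusted p = 9.05e-06) for SMAD3 and 0.48 ± 0.096 (edgeR adjusted p = 0.00138) for SMAD7, and SMAD7 did not pass within replicates 4 and 5 (0.33, edgeR adjusted p = 0.0949).

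TGFB2 started lower than in the first experiment, at 78.3, 74.5, 66.7, 41.9 and 28.3 CPM in Grow-v-v and 49, 44.1, 43.5, 29.2 and 26.8 CPM in OIS-v-v libraries, with the tables normalised separately. Replicates 4 and 5 were the lowest of both groups, and the groups overlapped. Without the block TGFB2 did not pass (log2 fold change -0.58 ± 0.26, edgeR adjusted p = 0.0875), but with the replicate number as a block it did, at -0.52 ± 0.10 (edgeR adjusted p = 0.00333). The change of TGFB2 was -0.68 (edgeR adjusted p = 5.53e-09) within replicates 1 to 3 and -0.33 (edgeR adjusted p = 0.17) within replicates 4 and 5, and -0.76 (edgeR adjusted p = 0.0098) without Grow-v-v replicate 5. TGFBI behaved alike in this respect, at 6013, 6148, 6176, 4476 and 4078 CPM in Grow-v-v and 5037, 4881, 4992, 2875 and 2948 CPM in OIS-v-v libraries. Its values in replicates 4 and 5 again lay below those of replicates 1 to 3 in both groups. Its log2 fold change was -0.36 ± 0.19 (edgeR adjusted p = 0.144) without and -0.39 ± 0.086 (edgeR adjusted p = 0.00624) with the block, and -0.29 (edgeR adjusted p = 2.17e-06) within replicates 1 to 3 and -0.55 (edgeR adjusted p = 0.00958) within replicates 4 and 5.

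TGFB1, which fell in the first experiment, had about equal means here, 299 ± 35.6 CPM in Grow-v-v and 291 ± 11.7 CPM in OIS-v-v libraries (SD, n = 5 each; log2 fold change -0.026 ± 0.089, edgeR adjusted p = 0.841). Its log2 fold change was -0.18 (edgeR adjusted p = 0.00453) within replicates 1 to 3 and 0.20 (edgeR adjusted p = 0.26) within replicates 4 and 5, opposite in sign between the sets, and 0.030 (edgeR adjusted p = 0.815) without Grow-v-v replicate 2. TGFBR1 held 82.5, 71.6, 75.2, 64.6 and 42.01 CPM in Grow-v-v and 41.8, 38.8, 39.9, 44.7 and 43.3 CPM in OIS-v-v libraries, with Grow-v-v replicate 5 inside the OIS-v-v range (log2 fold change -0.67 ± 0.14, edgeR adjusted p = 0.00208). Within replicates 4 and 5 TGFBR1 did not pass (-0.28, edgeR adjusted p = 0.251). TGFBR2 held 315, 317, 294, 257 and 225 CPM in Grow-v-v and 459, 469, 426, 316 and 328 CPM in OIS-v-v libraries, 4 of 5 of them above every Grow-v-v library (log2 fold change 0.52 ± 0.13, edgeR adjusted p = 0.00727). It passed within both sets of replicates. TGFB3 held at most 1.83 CPM (log2 fold change -0.73 ± 0.26, edgeR adjusted p = 0.0363), and its call was lost without replicate 2, 3 or 4 of Grow-v-v or replicate 1, 4 or 5 of OIS-v-v, where its log2 fold change lay between -0.75 and -0.62. It was -0.41 (edgeR adjusted p = 0.221) within replicates 1 to 3 and -1.33 (edgeR adjusted p = 0.02) within replicates 4 and 5, and the call was lost with no filter (-0.73, edgeR adjusted p = 0.0669) and with all 5 groups in 1 fit (-0.74, edgeR adjusted p = 0.0528). TGFBR3 did not pass (log2 fold change -0.27 ± 0.22, edgeR adjusted p = 0.334) except within replicates 1 to 3 (-0.52, edgeR adjusted p = 0.00988). The summed fibroblast markers ran from 39422 to 51672 CPM in Grow-v-v and from 13882 to 21283 CPM in OIS-v-v libraries (0 of 10 were higher and 7 lower past the threshold). In Grow-v-v and OIS-v-v libraries, in that order, the endothelial markers summed to 80.1 to 116 CPM and 63.5 to 75.9 CPM (1 higher and 1 lower of 3 tested), the epithelial markers 70.5 to 139.6 CPM and 79.1 to 94.6 CPM (1 higher and 2 lower of 3 tested) and the leukocyte markers 28.9 to 46.9 CPM and 47.01 to 90.1 CPM (1 higher and 0 lower of 1 tested). The part of these markers in these results was not tested.

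The effect of HMGA1 depletion was then compared in senescent and in proliferating cells. In OIS cells, SMAD3, SMAD7, CTGF, TGFBI, TGFB2 and TGFBR1 fell with shA1 and TGFBR3 rose, so 7 of 10 members passed, against 35.9% of the 13327 genes tested. The members had a median log2 fold change of -0.28 (all genes -0.00022), and by size without sign of 0.36 (all genes 0.15). TGFBI held 3435 to 3996 CPM (median 3775) in OIS and 2274 to 3012 CPM (median 2628) in OIS-shA1 libraries. SMAD3 held 80.4 to 123 CPM (median 95.8) in OIS and 54.1 to 78.7 CPM (median 70.4) in OIS-shA1 libraries. SMAD7 held 73.4 to 93.9 CPM (median 79.9) in OIS and 55.2 to 70.1 CPM (median 65.8) in OIS-shA1 libraries. For these 3 genes all 8 OIS-shA1 libraries lay below every OIS library. The log2 fold changes were -0.49 ± 0.048 (edgeR adjusted p = 5.54e-09) for TGFBI, -0.49 ± 0.073 (edgeR adjusted p = 4.66e-06) for SMAD3 and -0.31 ± 0.053 (edgeR adjusted p = 3.74e-05) for SMAD7, so the transducer SMAD3 and the inhibitor SMAD7 fell together. CTGF held 167 to 254 CPM (median 214) in OIS and 114 to 171 CPM (median 154) in OIS-shA1 libraries, 7 of 8 below every OIS library (log2 fold change -0.47 ± 0.069, edgeR adjusted p = 4.71e-06).

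TGFB2 held 29.2 to 47.7 CPM (median 35.7) in OIS and 24.6 to 34.1 CPM (median 29.9) in OIS-shA1 libraries. The groups overlapped, with 4 of 8 OIS-shA1 libraries below every OIS library (log2 fold change -0.24 ± 0.076, edgeR adjusted p = 0.0139). Fitted together with the Grow groups, TGFB2 missed the threshold, at -0.24 (edgeR adjusted p = 0.0561). TGFBR1 held 61.7 to 82.5 CPM (median 70.03) in OIS and 53.5 to 67.7 CPM (median 61.9) in OIS-shA1 libraries, also with overlap (log2 fold change -0.19 ± 0.058, edgeR adjusted p = 0.012). TGFBR3 was the member that rose, with 3.997 to 8.32 CPM (median 5.74) in OIS and 6.50 to 8.70 CPM (median 7.82) in OIS-shA1 libraries, 2 of 8 above every OIS library (log2 fold change 0.41 ± 0.12, edgeR adjusted p = 0.00718). TGFB1 (121 ± 9.67 CPM in OIS and 129.9 ± 13.9 CPM in OIS-shA1 libraries, SD, n = 8 each), TGFBR2 and TGFB3 did not pass, with log2 fold changes of 0.092 ± 0.058 (edgeR adjusted p = 0.23), -0.014 ± 0.040 (edgeR adjusted p = 0.82) and -0.40 ± 0.32 (edgeR adjusted p = 0.343). The summed fibroblast markers overlapped between these groups, at 5764 to 7090 CPM in OIS and 6378 to 7382 CPM in OIS-shA1 libraries, and 6 of 10 were higher and 2 lower past the threshold. Endothelial markers summed to 67.03 to 90.02 CPM in OIS and 74.7 to 94.2 CPM in OIS-shA1 libraries (0 higher and 0 lower of 2 tested). Epithelial markers summed to 42.9 to 61.1 and 44.4 to 51.4 CPM (0 higher and 1 lower of 3 tested). Leukocyte markers summed to 43.9 to 58.6 and 39.5 to 56.2 CPM (0 higher and 1 lower of 1 tested). The part of all these markers in the result was not tested.

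In proliferating cells, TGFB2, TGFBR2 and SMAD7 rose with shA1 and TGFB1 fell, so 4 of 10 members passed, against 29.9% of the 13072 genes tested. Across the 10 members the median log2 fold change was 0.0098 against 0.0067 for all genes tested, and its median size, sign left aside, 0.22 against 0.12. TGFB2 held 119 to 177 CPM (median 160.1) in Grow and 131 to 229 CPM (median 199) in Grow-shA1 libraries (log2 fold change 0.33 ± 0.091, edgeR adjusted p = 0.0064). TGFB1 held 170.3 to 204 CPM (median 196) in Grow and 129 to 191 CPM (median 147) in Grow-shA1 libraries (log2 fold change -0.36 ± 0.059, edgeR adjusted p = 4.03e-05). The 2 main ligands thus changed in opposite directions, with 5 of 8 Grow-shA1 libraries above every Grow library for TGFB2 and 7 of 8 below every Grow library for TGFB1. TGFBR2 held 321 to 408 CPM (median 364) in Grow and 372 to 492 CPM (median 453) in Grow-shA1 libraries, 7 of 8 above every Grow library (log2 fold change 0.30 ± 0.056, edgeR adjusted p = 0.000148). SMAD7 held 40.3 to 66.6 CPM (median 51.6) in Grow and 51.05 to 79.4 CPM (median 68.3) in Grow-shA1 libraries, 5 of 8 above every Grow library (log2 fold change 0.35 ± 0.080, edgeR adjusted p = 0.00142). SMAD3, CTGF and TGFBI, which fell in OIS-shA1 cells, did not pass here, at 166 ± 16.8 CPM for SMAD3, 1279 ± 65.5 CPM for CTGF and 6211 ± 325 CPM for TGFBI in Grow-shA1 libraries (SD, n = 8), with log2 fold changes of 0.030 ± 0.050 (edgeR adjusted p = 0.695), 0.088 ± 0.050 (edgeR adjusted p = 0.2) and -0.011 ± 0.039 (edgeR adjusted p = 0.867). TGFBR1 did not pass, at -0.19 ± 0.079 (edgeR adjusted p = 0.0753), but did without Grow replicate 8, at -0.24 (edgeR adjusted p = 0.00964), and without Grow-shA1 replicate 2, at -0.23 (edgeR adjusted p = 0.0339). TGFB3 and TGFBR3 had log2 fold changes of -0.26 ± 0.24 (edgeR adjusted p = 0.451) and -0.16 ± 0.10 (edgeR adjusted p = 0.254). The summed fibroblast markers ran from 28216 to 33866 CPM in Grow-shA1 libraries, below the Grow libraries at 37726 to 47082 CPM (3 of 10 were higher and 6 lower past the threshold). In Grow and Grow-shA1 libraries, in that order, the endothelial markers summed to 138 to 158 CPM and 160.4 to 213 CPM (1 higher and 0 lower of 1 tested), the epithelial markers 73.2 to 96.9 CPM and 46.4 to 71.8 CPM (0 higher and 3 lower of 4 tested) and the leukocyte markers 16.2 to 22.7 CPM and 19.2 to 25.9 CPM (1 higher and 0 lower of 2 tested). The part of these marker genes in the result was not tested.

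The difference between the effects of shA1 in OIS and in Grow cells was tested as an interaction over the 4 groups. The effect differed for 8 of the 10 members, against 23.6% of the 13903 genes tested. By median, the difference of log2 fold changes was -0.40 for the members and -0.012 for all genes, and its size alone 0.50 and 0.17. SMAD7 differed most, with a difference of log2 fold changes (the value in OIS minus the value in Grow) of -0.66 ± 0.10 (edgeR adjusted p = 3.26e-06): shA1 raised SMAD7 in Grow cells and lowered it in OIS cells. TGFB2 changed sign in the same way, with a difference of -0.57 ± 0.13 (edgeR adjusted p = 0.00109). For the target genes CTGF and TGFBI the differences were -0.56 ± 0.092 (edgeR adjusted p = 1.14e-05) and -0.48 ± 0.064 (edgeR adjusted p = 1.98e-07), and for SMAD3 -0.52 ± 0.093 (edgeR adjusted p = 4.23e-05). These 3 genes fell with shA1 in OIS and did not pass in Grow cells. TGFBR2 had a difference of -0.32 ± 0.072 (edgeR adjusted p = 0.001), with a rise in Grow and no call in OIS cells. TGFB1 and TGFBR3 differed the other way, by 0.45 ± 0.087 (edgeR adjusted p = 0.00013) and 0.57 ± 0.16 (edgeR adjusted p = 0.00717). For TGFBR1, which had nearly the same log2 fold change in both states (-0.19 in OIS and -0.19 in Grow), the difference was -0.00056 ± 0.10 (edgeR adjusted p = 0.998), and for TGFB3 it was -0.14 ± 0.41 (edgeR adjusted p = 0.845).

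**Figure D3:**
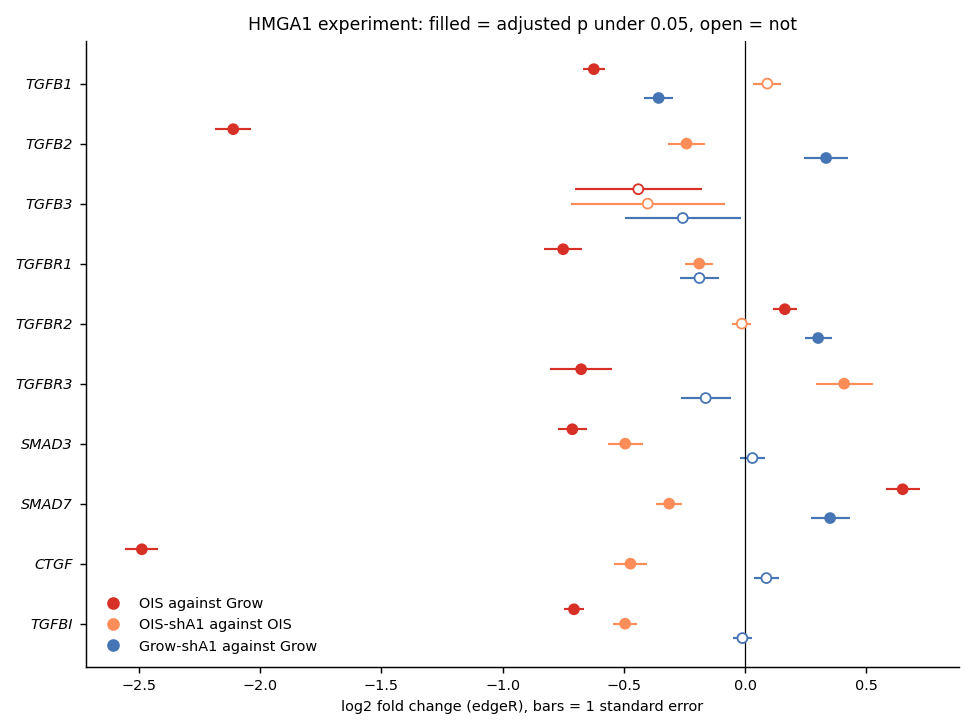
Points show the log2 fold change of each member for OIS against Grow, OIS-shA1 against OIS and Grow-shA1 against Grow, with bars of 1 SE, and filled points mark members past the threshold. SMAD7 and TGFB2 lie on opposite sides of 0 in the 2 shA1 comparisons, and CTGF, TGFBI and SMAD3 lie near 0 in Grow-shA1 and below 0 in OIS-shA1.

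The second experiment asked how depletion of CEBPB, of p53 or of both changed OIS cells. The 3 comparisons share the OIS-v-v libraries. With shCEBPB, TGFBR1 and SMAD7 fell and no member rose, so 2 of 10 passed, against 17.1% of the 13396 genes tested. With the replicate number as a block, 6 of 10 passed, against 31.9% of genes: TGFB2, TGFBR1, SMAD7 and TGFBI lower and TGFBR3 and CTGF higher. The members had a median log2 fold change of -0.15 (all genes -0.0020), and by size without sign of 0.27 (all genes 0.14). SMAD7 held 48.8, 46.4, 52.9, 50.8 and 50.7 CPM in replicates 1 to 5 of OIS-v-v and 33.4, 36.2, 36.3, 39.3 and 39.8 CPM in those of OIS-shCEBPB cells. TGFBR1 held 41.8, 38.8, 39.9, 44.7 and 43.3 CPM in OIS-v-v and 36.3, 32.8, 31.1, 33.04 and 38.3 CPM in OIS-shCEBPB libraries. Neither gene overlapped between the groups, and the log2 fold changes were -0.44 ± 0.060 (edgeR adjusted p = 0.000357) for SMAD7 and -0.29 ± 0.069 (edgeR adjusted p = 0.0123) for TGFBR1. TGFBR1 missed the threshold when fitted with all 5 groups (-0.29, edgeR adjusted p = 0.0648) and with library sizes alone (-0.22, edgeR adjusted p = 0.075).

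TGFB2 held 49, 44.1, 43.5, 29.2 and 26.8 CPM in OIS-v-v and 27.6, 29.3, 26.2, 13.8 and 11.9 CPM in OIS-shCEBPB libraries, so that each shCEBPB library was lower than the control of its number. Its log2 fold change was -0.83 ± 0.26 (edgeR adjusted p = 0.0502) without and -0.86 ± 0.082 (edgeR adjusted p = 7.44e-06) with the block, and -0.72 (edgeR adjusted p = 1.75e-07) within replicates 1 to 3 and -1.13 (edgeR adjusted p = 1.2e-08) within replicates 4 and 5. It also passed without OIS-v-v replicate 4 or 5 or OIS-shCEBPB replicate 2, at -0.91 (edgeR adjusted p = 0.0381), -0.93 (edgeR adjusted p = 0.0337) and -0.96 (edgeR adjusted p = 0.0432). TGFBI held 5037, 4881, 4992, 2875 and 2948 CPM in OIS-v-v and 3607, 3516, 3493, 2540 and 2285 CPM in OIS-shCEBPB libraries, also lower in each of the 5 pairs. Its log2 fold change was -0.43 ± 0.20 (edgeR adjusted p = 0.173) without and -0.41 ± 0.053 (edgeR adjusted p = 9.54e-05) with the block. CTGF held 423, 453, 447, 326 and 314 CPM in OIS-shCEBPB libraries, above every OIS-v-v library in replicates 1 to 3 and among them in replicates 4 and 5. With the block its log2 fold change was 0.23 ± 0.064 (edgeR adjusted p = 0.0185), but it was 0.35 (edgeR adjusted p = 7.4e-06) within replicates 1 to 3 and 0.022 (edgeR adjusted p = 0.858) within replicates 4 and 5. TGFBR3 passed with the block at 0.36 ± 0.11 (edgeR adjusted p = 0.0314), and its log2 fold change was 0.34 ± 0.21 (edgeR adjusted p = 0.321) without it, and 0.46 (edgeR adjusted p = 0.0187) within replicates 1 to 3 and 0.22 (edgeR adjusted p = 0.335) within replicates 4 and 5. TGFB1, TGFB3, TGFBR2 and SMAD3 passed neither with nor without the block, with log2 fold changes without it from -0.22 (TGFB3) to 0.094 (TGFBR2), and SMAD3 was -0.16 (edgeR adjusted p = 0.0301) within replicates 1 to 3 and 0.18 (edgeR adjusted p = 0.0792) within replicates 4 and 5.

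With shp53, 0 of 10 members passed in edgeR without the block, against 4.44% of the 13378 genes tested, and 4 passed with it, against 22.7% of genes. At an unadjusted p under 0.05, 2 of 10 members passed without the block, against 2645 of the 13378 genes tested. DESeq2 called 2 of 10 members, TGFB1 and CTGF, against 1092 of the 13378 genes. Across the 10 members the median log2 fold change was -0.034 against -0.0018 for all genes tested, and its median size, sign left aside, 0.15 against 0.12. TGFB1 held 287, 286, 276, 305 and 299.9 CPM in OIS-v-v and 361, 306, 311, 365 and 342 CPM in OIS-shp53 libraries. Every OIS-shp53 library lay above every OIS-v-v library, and the log2 fold change was 0.21 ± 0.060 (edgeR adjusted p = 0.0773) without and 0.21 ± 0.042 (edgeR adjusted p = 0.00365) with the block. The number of all genes called depended on single libraries here and lay between 336 and 938 genes with a library left out, against 594 (343 without OIS-v-v replicate 1, 357 without OIS-v-v replicate 3, 938 without OIS-v-v replicate 4, 336 without OIS-shp53 replicate 1, 357 without OIS-shp53 replicate 2, 381 without OIS-shp53 replicate 3). CTGF held 299.7, 295, 298, 263 and 263 CPM in OIS-shp53 libraries, 4 of 5 below every OIS-v-v library, at -0.22 ± 0.062 (edgeR adjusted p = 0.0703) without and -0.22 ± 0.039 (edgeR adjusted p = 0.00146) with the block. Without OIS-v-v replicate 5 it passed, at -0.26 (edgeR adjusted p = 0.0321). TGFBI and TGFBR2 passed with the block, at -0.26 ± 0.067 (edgeR adjusted p = 0.0155) and -0.17 ± 0.040 (edgeR adjusted p = 0.00986). The log2 fold change of TGFBI was -0.42 (edgeR adjusted p = 1.08e-09) within replicates 1 to 3 and -0.016 (edgeR adjusted p = 0.918) within replicates 4 and 5, and that of TGFBR2 -0.21 (edgeR adjusted p = 0.0002) within replicates 1 to 3 and -0.10 (edgeR adjusted p = 0.383) within replicates 4 and 5, so neither passed within replicates 4 and 5. TGFB2, TGFB3, TGFBR1, TGFBR3, SMAD3 and SMAD7 did not pass with or without the block, with log2 fold changes between -0.097 (TGFB2) and 0.29 (TGFB3), and within replicates 1 to 3 TGFB2 was at -0.18 (edgeR adjusted p = 0.0188).

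With both shRNAs, TGFB1 rose and TGFB2, TGFBR1, SMAD7 and TGFBI fell, so 5 of 10 members passed, against 33.6% of the 13388 genes tested. The same 5 passed with the block, where 5806 of the 13388 genes were called. By median, the log2 fold change was -0.27 for the members and -0.010 for all genes, and its size alone 0.27 and 0.19. TGFBI held 2442, 2425, 2436, 2045 and 1974 CPM in OIS-shCEBPB-shp53 libraries, all below the OIS-v-v libraries (log2 fold change -0.89 ± 0.17, edgeR adjusted p = 0.00179). TGFB2 held 24.8, 24.6, 21.3, 11.1 and 8.64 CPM, also below every OIS-v-v library (log2 fold change -1.10 ± 0.28, edgeR adjusted p = 0.0103). Both falls were found in each set of replicates: TGFBI was -1.03 (edgeR adjusted p = 1.88e-15) within replicates 1 to 3 and -0.54 (edgeR adjusted p = 6.28e-07) within replicates 4 and 5, and TGFB2 -0.95 (edgeR adjusted p = 8.17e-10) within replicates 1 to 3 and -1.51 (edgeR adjusted p = 6.1e-09) within replicates 4 and 5. SMAD7 held 34.5, 33.7, 30.7, 38 and 36.8 CPM and TGFBR1 32.8, 35.6, 33.7, 34.5 and 34.97 CPM in OIS-shCEBPB-shp53 libraries, at -0.54 ± 0.065 (edgeR adjusted p = 6.16e-05) and -0.29 ± 0.054 (edgeR adjusted p = 0.0014). TGFB1 held 353, 358, 323, 354 and 342 CPM, above every OIS-v-v library (log2 fold change 0.24 ± 0.048, edgeR adjusted p = 0.00242). SMAD3 held 85.3, 84.99, 81.4, 68.4 and 65.7 CPM in OIS-v-v and 61.5, 62.9, 60.9, 73.2 and 70.2 CPM in OIS-shCEBPB-shp53 libraries, lower in replicates 1 to 3 but not in replicates 4 and 5. Its log2 fold change was -0.24 ± 0.088 (edgeR adjusted p = 0.0502), and -0.45 (edgeR adjusted p = 1.87e-07) within replicates 1 to 3 and 0.088 (edgeR adjusted p = 0.403) within replicates 4 and 5. It passed in DESeq2 (-0.24, DESeq2 adjusted p = 0.0394) and with all 5 groups in 1 edgeR fit (-0.24, edgeR adjusted p = 0.0203). SMAD3 passed without OIS-v-v replicate 4 (-0.28, edgeR adjusted p = 0.0215), OIS-v-v replicate 5 (-0.30, edgeR adjusted p = 0.0154) or OIS-shCEBPB-shp53 replicate 4 (-0.28, edgeR adjusted p = 0.0433). CTGF, TGFBR2, TGFBR3 and TGFB3 did not pass, at 0.16 ± 0.11 (edgeR adjusted p = 0.283), -0.046 ± 0.13 (edgeR adjusted p = 0.811), 0.17 ± 0.20 (edgeR adjusted p = 0.557) and -0.33 ± 0.41 (edgeR adjusted p = 0.584), although CTGF was 0.27 (edgeR adjusted p = 1.89e-05) within replicates 1 to 3 and -0.036 (edgeR adjusted p = 0.759) within replicates 4 and 5.

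The summed fibroblast markers overlapped among the OIS groups of this experiment, at 13882 to 21283 CPM in OIS-v-v, 19697 to 20898 CPM in OIS-shCEBPB, 17700 to 20949 CPM in OIS-shp53 and 19231 to 23091 CPM in OIS-shCEBPB-shp53 libraries. Of the 10 markers, 1 was higher and 2 lower with shCEBPB, 2 and 0 with shp53, and 2 and 3 with both. The part of these markers in these results was not tested. Whether the change with both shRNAs departed from the sum of the changes with either was tested with an interaction term. Of the members, 0 of 10 passed in edgeR (lowest adjusted p = 0.999), against 0.0432% of the 13873 genes tested (6 genes, and 682 at an unadjusted p under 0.05), and DESeq2 called 30 genes and 0 members. At an unadjusted p under 0.05, 1 member passed in edgeR, SMAD3, at -0.22 ± 0.11 (SE) on the log2 scale, and within replicates 1 to 3 it passed adjustment (-0.26, edgeR adjusted p = 0.0316). The departures of the other members ranged from -0.38 (TGFB3, SE 0.50) to 0.15 (CTGF, SE 0.16).

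**Figure D4:**
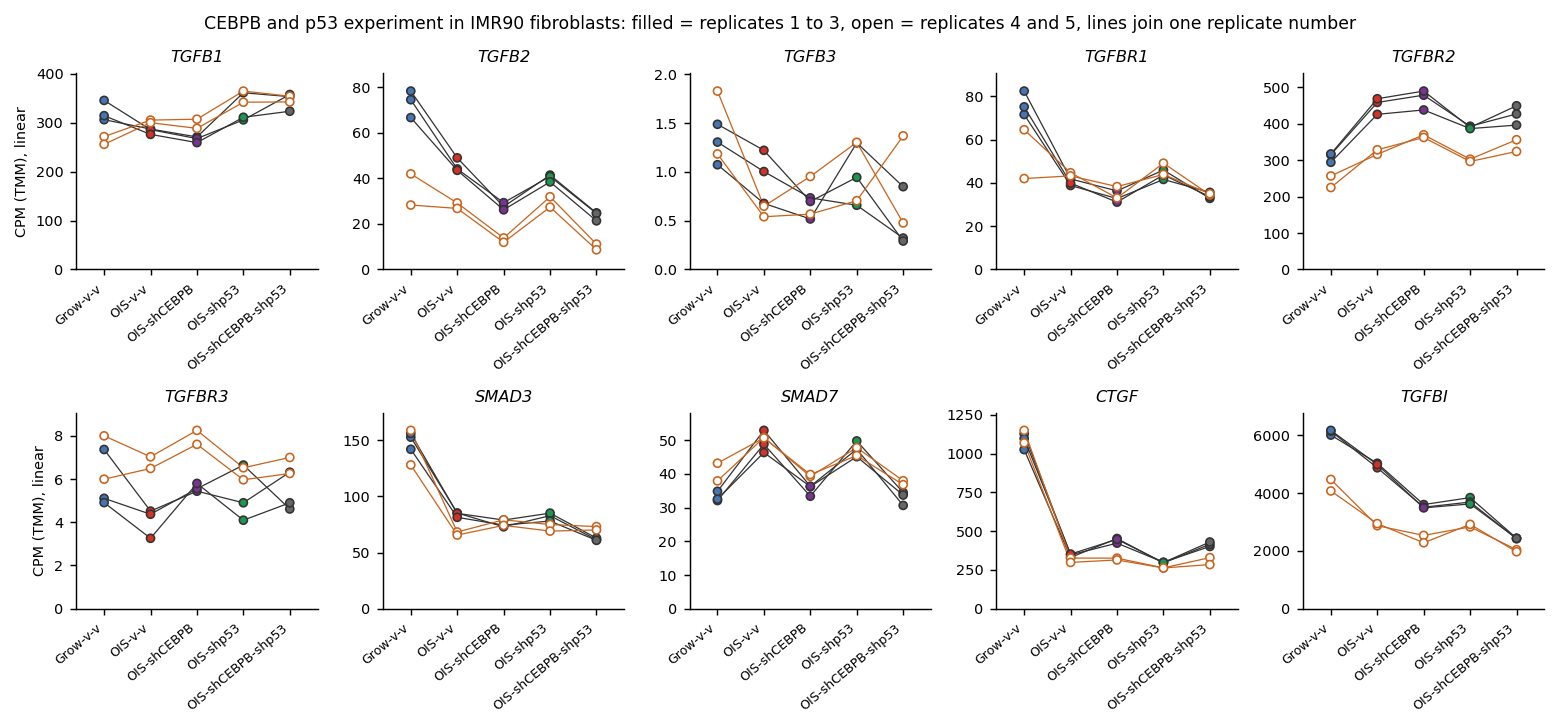
Each panel plots the CPM of a member gene (linear axis) in the 5 libraries of each group of the second experiment. Replicates 1 to 3 are filled points, replicates 4 and 5 are open points, and lines join libraries of the same replicate number. TGFB2, TGFBI and TGFBR2 are lower in replicates 4 and 5 of every group, and SMAD7 and TGFBR1 are lower in both groups with shCEBPB than in OIS-v-v libraries.

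In H1299 cells, TGFB2, TGFBR3 and SMAD3 fell with shA1 and no member rose, so 3 of 10 members passed, against 15.6% of the 14840 genes tested. The members had a median log2 fold change of 0.067 (all genes 0.0048), and by size without sign of 0.16 (all genes 0.095). TGFB2 held 18.2 to 23.6 CPM (median 20.7) in H1299 and 14.8 to 17.4 CPM (median 16.4) in H1299-shA1 libraries, and all 6 H1299-shA1 libraries lay below every H1299 library (log2 fold change -0.38 ± 0.066, edgeR adjusted p = 0.000548). TGFBR3 held 131 to 141 CPM (median 139) in H1299 and 109 to 136 CPM (median 124) in H1299-shA1 libraries, 5 of 6 below every H1299 library. Its log2 fold change was -0.16 ± 0.044 (edgeR adjusted p = 0.0188), and -0.13 (edgeR adjusted p = 0.0512) without H1299-shA1 replicate 5. SMAD3 held 122 to 144 CPM (median 137) in H1299 and 107 to 127 CPM (median 118) in H1299-shA1 libraries, with overlap (log2 fold change -0.18 ± 0.049, edgeR adjusted p = 0.0134). TGFBR1 missed the threshold at -0.15 ± 0.051 (edgeR adjusted p = 0.0544) and passed without H1299 replicate 4 or 5 or H1299-shA1 replicate 2, at -0.16 (edgeR adjusted p = 0.0392), -0.17 (edgeR adjusted p = 0.0433) and -0.18 (edgeR adjusted p = 0.0314). TGFB1, TGFB3 and TGFBR2 did not pass, at 0.11 ± 0.051 (edgeR adjusted p = 0.151), 0.049 ± 0.070 (edgeR adjusted p = 0.696) and 0.085 ± 0.044 (edgeR adjusted p = 0.212).

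The target genes split the H1299-shA1 libraries. In replicates 2 to 7, CTGF held 115, 91.9, 117, 117, 85.9 and 77.2 CPM and TGFBI 32.8, 20.1, 27.99, 34.1, 21.9 and 17.5 CPM. SMAD7, below 10 CPM in this line, held 7.59, 2.80, 5.58, 6.09, 5.27 and 3.35 CPM. Replicates 2, 4 and 5 were higher than replicates 3, 6 and 7 in all 3 genes. The H1299 libraries held 84.02 to 109 CPM (median 87.8) of CTGF, 15.9 to 33 CPM (median 20.4) of TGFBI and 2.53 to 5.27 CPM (median 3.66) of SMAD7, and H1299 replicate 1 was the highest of them in all 3. The log2 fold changes were 0.16 ± 0.090 (edgeR adjusted p = 0.255), 0.24 ± 0.16 (edgeR adjusted p = 0.323) and 0.46 ± 0.20 (edgeR adjusted p = 0.13), and without H1299-shA1 replicate 3 SMAD7 passed, at 0.59 (edgeR adjusted p = 0.0277). The summed epithelial markers, made up of KRT8 and KRT18 for the most part, ran from 817 to 1141 CPM in H1299 and from 633 to 719 CPM in H1299-shA1 libraries. The summed fibroblast markers went the other way, from 1636 to 1762 CPM in H1299 and from 1899 to 2188 CPM in H1299-shA1 libraries. Only 2 of these 10 markers reached a mean of 1 CPM in either group, and 1 was higher and 0 lower of 4 tested. The leukocyte markers overlapped, at 38.9 to 63.8 CPM in H1299 and 49.7 to 75.2 CPM in H1299-shA1 libraries, and the endothelial markers reached at most 0.309 CPM. The part of these markers in the result was not tested.

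**Figure D5:**
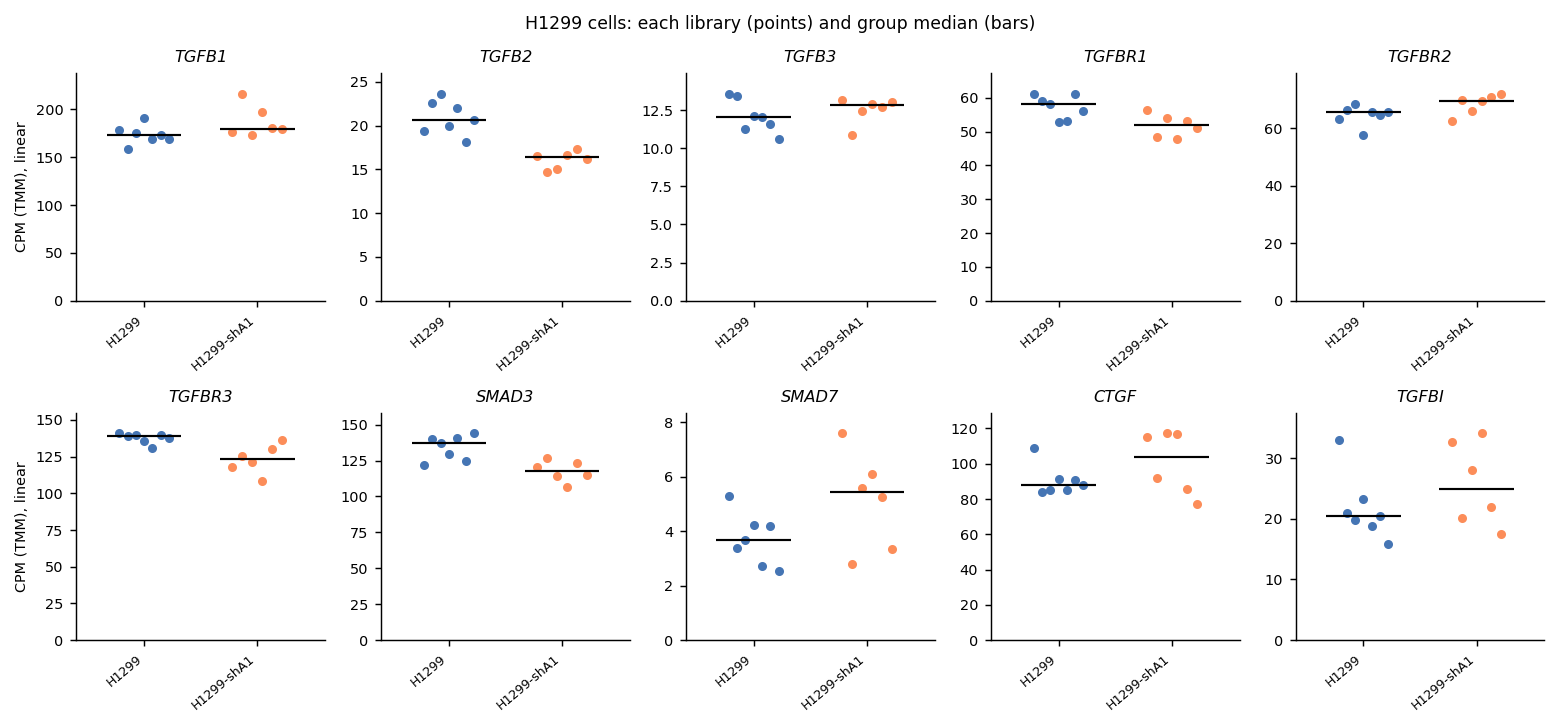
Each panel plots the CPM of a member gene (linear axis) in the 7 H1299 and the 6 H1299-shA1 libraries as points, with a bar at the group median. TGFB2 is the member whose groups do not overlap, and CTGF, TGFBI and SMAD7 spread widely among the H1299-shA1 libraries.

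The members sit among further genes of the pathway, kept in 5 lists. From Grow to OIS, 21 of the 63 list genes tested rose and 36 fell, 90.5% in all against 74.8% of all genes. Among genes for ligand latency and activation, 1 of 10 rose and 7 fell, with the largest rise in the integrin subunit ITGB8 (log2 fold change 2.87) and the largest fall in THBS1, a thrombospondin that releases active ligand (-1.84). Of the accessory and related receptors, 5 of 10 rose and 4 fell, led by the type I receptor ACVRL1 (1.78) and the BMP receptor BMPR2 (-0.46). Of the related ligands and their traps, 3 of 9 rose and 6 fell, with BMP2 (1.88) and the activin trap FST (-3.05) at the ends. Of the SMAD transducers and their regulators, 6 of 15 rose and 7 fell, with the inhibitory SMAD6 (0.74) and the shared partner SMAD4 (-0.61) at the ends. Of the further target genes, 6 of 19 rose and 12 fell, with the cell cycle inhibitor CDKN2B (2.85) and elastin, ELN (-4.08), at the ends, and COL1A1, COL1A2 and COL3A1 of this list are also fibroblast markers. The edgeR adjusted p of these named genes was at most 1.07e-05.

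From Grow-v-v to OIS-v-v, 20 of 62 list genes rose and 19 fell (62.9% against 45.8% of all genes). The lists gave 2 rises and 1 fall of 10 for latency and activation, 3 and 1 of 10 for receptors, 3 and 4 of 8 for related ligands and traps, 5 and 2 of 15 for SMADs and regulators and 7 and 11 of 19 for further targets. ITGB8 (2.22), ACVRL1 (1.63), BMP2 (2.56) and CDKN2B (3.15) again had the largest rise of their lists and FST (-2.88) and ELN (-3.11) the largest fall. LTBP4, of the latent TGF-beta binding protein family (-0.94), and the receptor ACVR1 (-0.22) fell most in the other lists, and among SMADs and regulators FKBP1A, which binds type I receptors, rose most (1.39). SMAD6 had the largest fall of its list here (-0.66, edgeR adjusted p = 0.0346), and it had the largest rise in the first experiment.

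With shA1 in OIS cells, 13 of 63 list genes rose and 22 fell (55.6% against 35.9% of all genes). In the further targets, 5 of 19 rose and 11 fell, from ELN (-1.14) to IL11, a fibrogenic cytokine (0.69). Among latency and activation genes 3 of 10 rose and 2 fell (ITGAV 0.23, the protease FURIN -0.23), among receptors 0 of 10 rose and 3 fell (ACVR2A -0.41), and among related ligands and traps 2 of 9 rose and 2 fell (the activin subunit INHBA 0.21, the BMP antagonist NOG -0.52). Among SMADs and regulators 3 of 15 rose and 4 fell, and SMAD6 (-0.73) fell as SMAD7 did, while FKBP1A rose (0.35). With shA1 in Grow cells, 10 of 62 rose and 24 fell (54.8% against 29.9%). Of the further targets 2 of 19 rose and 14 fell, with the largest rise in the matrix protein periostin, POSTN (0.70), although the members CTGF and TGFBI did not pass there. Among latency and activation genes 1 of 9 rose and 3 fell (LTBP4 0.21, LTBP2 -0.74), among receptors 1 of 10 rose and 3 fell (ACVRL1 0.51, ACVR2A -0.65), among related ligands and traps 2 of 9 rose and 3 fell (BMP2 0.54, NOG -0.71), and among SMADs and regulators 4 of 15 rose and 1 fell (the ubiquitin ligase NEDD4L 0.47, SMAD4 -0.13). The values in parentheses are log2 fold changes past the threshold, with edgeR adjusted p of at most 0.0221.

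Between OIS and Grow cells, the response to shA1 differed for 29 of 64 list genes, 17 higher and 12 lower in OIS (45.3% against 23.6%). By list, 4 were higher and 1 lower of 10 for latency and activation (LTBP2 0.65, THBS1 -0.25), 0 and 2 of 10 for receptors (ACVRL1 -0.47) and 2 and 1 of 10 for related ligands and traps (FST 0.49, BMP2 -0.67). For SMADs and regulators 3 were higher and 4 lower of 15 (ZFYVE9, which brings SMADs to the receptor, 0.49, SMAD6 -1.09), and for further targets 8 and 4 of 19. LOX, which cross-links collagen and elastin, had the largest positive difference (1.31, edgeR adjusted p = 1.07e-13): its log2 fold change with shA1 was 0.60 in OIS and -0.71 in Grow cells. ELN had the largest negative difference (-1.12, edgeR adjusted p = 0.0194).

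With shCEBPB, 15 of 62 list genes rose and 11 fell (41.9% against 17.1%). The rises and falls were 2 and 0 of 10 for latency and activation, 2 and 3 of 10 for receptors, 2 and 4 of 8 for related ligands and traps, 1 and 1 of 15 for SMADs and regulators and 8 and 3 of 19 for further targets, and with the block they were 3 and 0, 3 and 4, 2 and 4, 3 and 5, and 10 and 4, where 31.9% of all genes were called. BMP4 rose (1.44) where BMP2 fell (-1.40), and the scaffold gene NEDD9 rose (1.53) where IL11 fell (-1.25). PMEPA1, a feedback inhibitor of the pathway like SMAD7, fell (-0.61), the ubiquitin ligase WWP1 rose (0.28), LTBP1 rose (0.56), and of the BMP receptors BMPR1A rose (0.26) and BMPR1B fell (-1.15). With both shRNAs, 15 rose and 14 fell (46.8% against 33.6%), with 3 and 2 of 10, 3 and 2 of 10, 2 and 4 of 8, 1 and 4 of 15 and 6 and 2 of 19 in the same order of lists. BMP4 (1.87), BMP2 (-1.52), NEDD9 (1.78), IL11 (-1.11), PMEPA1 (-0.69), WWP1 (0.33) and LTBP1 (0.57) were named here too, in a comparison that shares its controls, with ITGB8 (-1.28), BMPR2 (0.30) and ACVR2B (-0.59).

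With shp53, 2 of 62 rose and 2 fell (6.45% against 4.44%): LTBP4 (0.44) and FST (0.53) rose, and the activin trap FSTL3 (-0.58) and smooth muscle actin, ACTA2 (-1.01), fell. With the block the rises and falls per list, in the order above, were 3 and 3, 4 and 1, 2 and 2, 3 and 1 and 4 and 5, where 22.7% of all genes were called. In the departure from the sum of both knock-downs, 0 of 62 list genes passed in edgeR and 0 in DESeq2, with 1 at an unadjusted p under 0.05. In H1299-shA1 cells 7 of 52 rose and 9 fell (30.8% against 15.6%), with 2 and 3 of 10 (FURIN 0.31, LTBP1 -0.41), 0 and 3 of 8 (ACVR2B -0.30), 1 and 2 of 6 (BMP6 0.44, FSTL3 -0.33), 1 and 1 of 15 (NEDD4L 0.53, WWP1 -0.37) and 3 and 0 of 13 (ACTA2 0.68) in the order of lists above.

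Over the 32 libraries of the first experiment, which fall into 4 groups and share depth and scaling, the genes closest to each member by Pearson's r of log2 CPM were taken among 8987 genes of at least 10 CPM, as a description of the group pattern. CTGF was closest to CCN1, a matricellular gene of its own family (0.994), and to the cell cycle genes KIFC1 and CDK1 (0.993 each). SMAD3 was closest to TGFBI (0.981), then to SMC1A and CCN4 (0.971 each), and TGFBI itself to CALHM5 (0.984), NCAPD3 (0.984), CDH11 (0.982). TGFB2 was closest to CTSC (0.991), TYMS (0.988), TENT5C (0.988), TGFB1 to NT5DC2 (0.937), PFKP (0.937), ACTG1 (0.933) and TGFBR1 to MTMR2 (0.952), PLOD2 (0.951), NOX4 (0.951). SMAD7 and TGFBR2, whose order of groups was unlike that of the other members, had lower values, for SSBP3 (0.837), DENND2B (0.828), APCDD1L-DT (0.82) and for ERAP2 (0.778), PDGFRA (0.775), PARP14 (0.775). Among the members, TGFB2 and CTGF had r = 0.984, SMAD7 and TGFB1 had r = -0.616, and TGFB3 and TGFBR3 were below 10 CPM and left out.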

How the data were processed

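The authors deposited raw counts per gene from STAR alignments to hg19, made with featureCounts over the exons of each gene and without normalisation, as fragments in the first table and reads in the third per the file headers. The second table carries no program line, and strand was not used. Kits and sequencers per library are not given in the labels. Counts were read for all 70 libraries, and a reference list of Ensembl gene identifiers and symbols named 42662 of 44503 identifiers (95.9%).

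For each pairwise comparison the libraries of both groups were fitted in edgeR 4.0.16 (R 4.3.3) with TMM factors, filterByExpr (minimum count 10), the quasi-likelihood F test and Benjamini-Hochberg adjustment over all genes tested, called at an adjusted p under 0.05. Interactions were fitted with all 4 groups they involve. The SE is the size of the log2 fold change divided by the square root of F. The labels call the libraries biological replicates without naming cultures, so p-values measure the spread between these libraries. In the second experiment, same-numbered libraries deviated together (r of deviations from the group means 0.15 to 0.32 for Grow-v-v and OIS-v-v, and 0.48 to 0.62, 0.46 to 0.64 and 0.35 to 0.50 for OIS-v-v and the 3 shRNA groups), and blocked values are given beside results they change.

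Alternatives were the DESeq2 1.42.0 Wald test, other scaling (RLE, or library sizes alone), other filters (genes with 1 count or more, or with 10 or more in each library), a replicate block, a joint fit of a table's groups and leaving out each library. The split of the second experiment by replicate number was chosen after seeing the data. Members and lists were chosen with earlier results of these data known. All 10 members are named in every comparison, and from each list the gene with the largest rise and the gene with the largest fall past the threshold at a mean of at least 1 CPM. The level of 1 knocked-down gene and the value of 1 list gene that this rule names are not reported here. Genes of like pattern are the 3 with the highest r. Marker lists held 10 fibroblast, 6 epithelial, 5 endothelial (PECAM1 not matched) and 6 leukocyte genes. In IMR90 groups the summed endothelial markers reached at most 213 CPM and the leukocyte markers at most 90.1 CPM, and in H1299 groups 0.309 and 75.2 CPM. Figures were drawn with matplotlib 3.10.9.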

Additional observations from a re-analysis of the deposited data

Results flagged for a closer look

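In 5 of the 110 sets of a member and a group, the highest or lowest library stood farther from its neighbour than Dixon's critical value allows, where chance gives about 1 in 20. TGFB2 in OIS replicate 4, the shallowest library, was 47.7 CPM, against 29.2 to 37.6 CPM in the other OIS libraries. SMAD7 in OIS replicate 8 was 93.9 CPM, against 73.4 to 80.9 CPM. CTGF in H1299 replicate 1 was 109 CPM, against 84.02 to 91.2 CPM. TGFB3 in Grow replicate 4 was 2.62 CPM (others 0.859 to 1.64 CPM), and in H1299-shA1 replicate 3 it was 10.9 CPM (others 12.4 to 13.2 CPM).

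The effect of shA1 differed between OIS and Grow cells by the interaction term for 8 members. On the log2 scale, the difference was 0.45 for TGFB1, -0.57 for TGFB2, -0.32 for TGFBR2, 0.57 for TGFBR3, -0.52 for SMAD3, -0.66 for SMAD7, -0.56 for CTGF and -0.48 for TGFBI, with edgeR adjusted p from 1.98e-07 to 0.00717. Leaving out each library in turn changed no call among these 8.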

How the results depend on the processing

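Over the members, 60 of 2302 recomputed values changed sign, all of them of members not past the threshold, 61 gained and 15 lost a call, and no call changed sign. The causes were not tested. Beside the calls named in the report, TGFB2 (shCEBPB) passed in DESeq2 (-0.83, DESeq2 adjusted p = 0.0119), with RLE scaling (-0.83, edgeR adjusted p = 0.0494) and with genes of 1 count or more (-0.82, edgeR adjusted p = 0.0285), TGFBR1 passed in H1299-shA1 cells in DESeq2 (-0.15, DESeq2 adjusted p = 0.0352) and in Grow-shA1 cells with genes of 1 count or more (-0.19, edgeR adjusted p = 0.0395) or all groups in 1 fit (-0.19, edgeR adjusted p = 0.0483), CTGF (shp53) and TGFBR2 (OIS-shA1) passed with library sizes alone (-0.20, edgeR adjusted p = 0.0425 and -0.10, edgeR adjusted p = 0.046), and TGFB2 (OIS-shA1) missed with all groups in 1 fit (-0.24, edgeR adjusted p = 0.0561). With shCEBPB, 4270 genes and 6 members passed with the replicate block, 4408 and 7 within replicates 1 to 3, 3302 and 4 within replicates 4 and 5, 2521 and 1 with library sizes alone, and 2406 and 1 with all groups in 1 fit. With shp53, 1092 genes and 2 members passed in DESeq2, 3037 and 4 with the block, 4578 and 5 within replicates 1 to 3, 717 and 2 within replicates 4 and 5, 564 and 1 with library sizes alone, and 0 to 1 member and 336 to 938 genes with a library left out, against 594 with all (343 without OIS-v-v replicate 1, 357 without OIS-v-v replicate 3, 938 without OIS-v-v replicate 4, 336 without OIS-shp53 replicate 1, 357 without OIS-shp53 replicate 2, 381 without OIS-shp53 replicate 3). With both shRNAs, 7240 genes passed within replicates 1 to 3. For the departure from the sum, 30 genes passed in DESeq2, 3 with no filter, 104 with the block, 1 in the joint fit, 463 (and 1 member) and 294 within the sets of replicates, and 2 to 10 with a library left out, against 6 (2 without OIS-shCEBPB replicate 1, 2 without OIS-shCEBPB replicate 2, 10 without OIS-shCEBPB replicate 5, 2 without OIS-shp53 replicate 4, 2 without OIS-shp53 replicate 5, 2 without OIS-shCEBPB-shp53 replicate 1, 2 without OIS-shCEBPB-shp53 replicate 3, 3 without OIS-shCEBPB-shp53 replicate 4). In both HMGA1 experiments few same-numbered libraries deviated together: r of deviations was over 0.1 in at most 2 of 8 pairs and, in H1299 cells, 2 of 6. These r ran from -0.20 to 0.22 in the first experiment and from -0.21 to 0.37 in H1299 cells. Whether the replicate numbers mark a shared culture or batch in these experiments was not tested. With the block, 9827 genes passed in OIS, 4125 in OIS-shA1, 3962 in Grow-shA1 and 2407 in H1299-shA1 cells. It added TGFBR1 in Grow-shA1 cells and, in H1299-shA1 cells, SMAD7 and TGFBI (5 members), and changed no other member call in these experiments.

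The values that changed sign, on the log2 scale, were with library sizes alone 0.017 (TGFBI, Grow-shA1), 0.00036 and 0.046 (TGFB1 and SMAD3, shCEBPB), 0.062 (TGFBR2, both shRNAs) and 0.0012 (SMAD7, departure), and with no filter 0.0011 (TGFBR1, interaction). Within replicates 4 and 5 they were 0.20 (TGFB1, OIS-v-v), 0.36 and 0.18 (TGFB3 and SMAD3, shCEBPB), 0.087 and -0.11 (TGFB2 and TGFBR3, shp53), 0.58, 0.068, -0.037, 0.088 and -0.036 (TGFB3, TGFBR2, TGFBR3, SMAD3 and CTGF, both shRNAs) and 0.043 (SMAD7, departure), and within replicates 1 to 3 -0.033 (SMAD3, shp53). With a library left out the ranges were -0.013 to 0.050 and -0.021 to 0.010 (SMAD3 and TGFBI, Grow-shA1), -0.33 to 0.0031 and -0.061 to 0.053 (TGFB3 and TGFBR1, interaction), -0.085 to 0.030 (TGFB1, OIS-v-v), -0.082 to 0.011 (SMAD3, shCEBPB), -0.20 to 5.2e-05 and -0.036 to 0.055 (TGFB2 and SMAD3, shp53), -0.12 to 0.019 (TGFBR2, both shRNAs) and -0.32 to 0.0052, -0.031 to 0.11 and -0.039 to 0.033 (TGFB2, TGFBR2 and SMAD7, departure).

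With library sizes alone the median of all genes moved from 0.027 to 0.22 (OIS against Grow) and from -0.012 to -0.13 (interaction), and the share of calls that were higher from 51.9 to 66.2% (OIS), 52.3 to 27.8% (OIS-shA1), 49.4 to 60.3% (Grow-shA1), 51.7 to 20.4% (interaction), 53.2 to 70.9% (shCEBPB) and 50.9 to 71.01% (both shRNAs). It moved less in the other comparisons, from 49.4 to 49.2% (OIS-v-v), 55.6 to 60.5% (shp53) and 55.5 to 53.9% (H1299-shA1). For the departure, with few calls, the share was 50%, 60% with library sizes alone and 33.3% in DESeq2. Depth limits TGFB3 most, with 0 to 48 counts per IMR90 library.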
